A study of Mus musculus with 175 samples.

Results

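The transcripts of the enzymes of glycolysis and of the pentose phosphate pathway were followed in single hematopoietic progenitors of the mouse fetal liver. The set held 32 genes, listed by symbol from these pathways, and all 32 were found by symbol among the 49585 mouse genes of the count table. They were 10 genes of upper glycolysis, 9 of lower glycolysis, 2 lactate dehydrogenases, 4 PFKFB genes, 3 of the oxidative and 4 of the non-oxidative pentose phosphate arm.

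The cells came from embryonic day 14.5 fetal livers on a C57BL/6 crossed with ICR background, and all carried Runx1 reporter alleles. Runx1 encodes a transcription factor of blood development that is transcribed from promoters P1 and P2, and the hCD4 reporter marks cells in which P2 is used. The labels give the genotype as Runx1 P2-GFP::P2-hCD4/+, whereas the methods of the study name a P1-GFP::P2-hCD4/+ line. Megakaryocyte-erythroid progenitors (MEPs) without and with the reporter were profiled as 56 and 47 cells and are called P2- and P2+ MEPs. Common myeloid progenitors (CMPs) without and with it were profiled as 27 and 42 cells. Every list of 4 values below gives P2- MEPs before P2+ MEPs, then the P2- and last the P2+ CMPs. MEPs were sorted as CD34- and CMPs as CD34+ cells, and both were gated as lineage- Sca1- cKit+ CD41- CD150+. The livers of 2 litters were pooled before sorting, so each population was 1 sample. No test between populations was therefore possible, and the intervals given below cover the counting of reads only.

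Glycolysis turns glucose into pyruvate, and lactate dehydrogenase exchanges pyruvate with lactate. The pentose phosphate pathway branches off after hexokinase, where its oxidative arm yields NADPH and its non-oxidative arm makes ribose phosphate and returns carbon to glycolysis. Many steps have isozymes encoded by separate genes, and the mature red cell, which has no mitochondria, depends on both pathways and on the red cell form of pyruvate kinase encoded by Pklr.

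Of the 25 genes read widely enough to compare, 7 were at least 2-fold apart in at least 1 of 4 comparisons between populations, 28% beside 30.7% of all genes compared. Pklr was high in P2- MEPs, lower in P2+ MEPs and nearly unread in both CMP populations. Ldhb had the opposite order. Rpia was highest in P2- MEPs and lowest in P2+ CMPs, and Hk2 stood highest in P2- CMPs.

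Pklr, Ldhb and Rpia are shown with the 250 bases upstream of each RefSeq start (GRCm38.p6), because each was at least 2-fold apart in 3 of the comparisons below, as no other member that passed the filter was. Capitals mark matches to the GATA motif (the letters GATA with A or T before them and A or G after them) or to the core CACCC, searched on both strands, so that a core on the other strand appears as GGGTG. Pklr has 2 RefSeq starts, for which the windows are chr3:89135892-89136141 and chr3:89136373-89136622 on the plus strand. The Rpia window is chr6:70792176-70792425 and that of Ldhb is chr6:142507958-142508207, both on the minus strand. In GENCODE M21 on the same build the genes themselves lie at chr3:89136142-89146784 (Pklr), chr6:70765720-70792232 (Rpia) and chr6:142490249-142507957 (Ldhb), so that the first bases of Rpia there fall inside its window.
Pklr, upstream start: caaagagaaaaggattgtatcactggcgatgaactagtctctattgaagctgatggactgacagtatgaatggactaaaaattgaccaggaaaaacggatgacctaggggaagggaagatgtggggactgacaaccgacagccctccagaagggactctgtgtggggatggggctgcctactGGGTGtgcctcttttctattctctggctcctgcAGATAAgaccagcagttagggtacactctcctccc
Pklr, downstream start: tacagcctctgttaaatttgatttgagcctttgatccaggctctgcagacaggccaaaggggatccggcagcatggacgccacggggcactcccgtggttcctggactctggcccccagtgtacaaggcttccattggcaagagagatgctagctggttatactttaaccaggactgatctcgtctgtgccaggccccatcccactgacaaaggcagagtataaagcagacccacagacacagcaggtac
Rpia: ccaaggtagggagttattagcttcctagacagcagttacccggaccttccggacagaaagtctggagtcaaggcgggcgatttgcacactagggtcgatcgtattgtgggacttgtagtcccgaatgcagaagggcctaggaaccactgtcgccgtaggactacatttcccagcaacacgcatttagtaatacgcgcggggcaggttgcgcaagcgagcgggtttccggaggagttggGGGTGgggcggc
Ldhb: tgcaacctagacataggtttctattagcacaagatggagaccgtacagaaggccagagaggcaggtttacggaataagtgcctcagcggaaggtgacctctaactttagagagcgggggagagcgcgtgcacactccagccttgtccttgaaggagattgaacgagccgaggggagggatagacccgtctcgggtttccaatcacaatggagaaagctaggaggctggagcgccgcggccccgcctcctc

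The window before the upstream Pklr start held 1 GATA match, with its first base at -35 from the start, and 1 CACCC core at -68. The window before the downstream start held neither. Rpia had 1 CACCC core at -12 and no GATA match, and Ldhb had neither motif. GATA matches were present in the windows of 9 of the 32 members, against 29.7% of 27025 genes with such a window. The CACCC core was present in 23 members, against 54.5% of all genes. The core ACGTG was present in 10 members, against 18.5% of all genes, among them Aldoa, Hk2, Ldha, Pgam1, Pgk1 and Pkm. The longer CACGTG, which contains that core, was present in 4 members and in 6.86% of all genes. The motif CCNCNCCC was present in 26 members and in 48.5% of all genes. These are matches of letters and no binding was measured. The genes with such a window were not matched to the members in expression or base composition.

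Cells held between 295064 and 1540631 reads on mouse genes and medians of 520540, 624148, 637603 and 804632 by population. Levels are counts per 1000000 reads on mouse genes (CPM), computed from the reads pooled over the cells of a population, and a difference is relative to that total. Reads on the added ERCC spike-in RNA were a median 1.46%, 2.48%, 2.14% and 1.73% of the counted reads of a cell. Scaled to ERCC reads instead, the median log2 ratio of all genes was -0.60 for P2+ over P2- MEPs, 0.30 for the same comparison in CMPs, and -0.52 and 0.38 for CMPs over MEPs without and with the reporter. On that scale 29 of the 99 member ratios below had another sign, and none of these was 2-fold or more apart in CPM. The labelled cell types were checked against markers. Klf1, an erythroid transcription factor, was read in 56 of 56, 39 of 47, 14 of 27 and 2 of 42 cells after each cell was thinned to 100000 reads. Cd34, a marker used in the sort, was read in 1, 7, 22 and 41 cells. The summed level of 10 erythroid markers was 2062, 1103, 861 and 466 CPM. That of 7 megakaryocyte markers was 49.2, 489, 490 and 599.8 CPM, and that of 7 granulocyte and monocyte markers 9.80, 42.3, 291.3 and 525 CPM. The 5 macrophage markers summed to at most 1.39 CPM and the 4 endothelial markers to at most 3.88 CPM. The 5 hepatocyte markers summed to 10.6, 10.3, 24.7 and 13.1 CPM, with Alb read in 6, 0, 1 and 0 cells and Afp in 4, 3, 2 and 6 cells. A share of cells of that size was taken as the background for the member genes.

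The members together took 0.998%, 0.964%, 0.917% and 0.942% of the reads on mouse genes. Of the 32, 25 had reads in at least 25% of cells and a mean of at least 1 read per cell, and passed to the comparison between populations. The 7 that did not were Hk3, Aldoc, Eno2, Eno3, Pfkfb1, Pfkfb2 and Pfkfb4. Ldhb and Pfkfb3 passed at the limit itself, with reads in 25% of cells. Since a member that is read in few populations can pass only through those where it is high, the counts of members below are descriptions. Reads of 10 members, Gpi1, Aldoa, Tpi1, Gapdh, Eno1, Pkm, Ldha, Pgls, Tkt and Taldo1, were found in every cell.

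**Figure D1:**
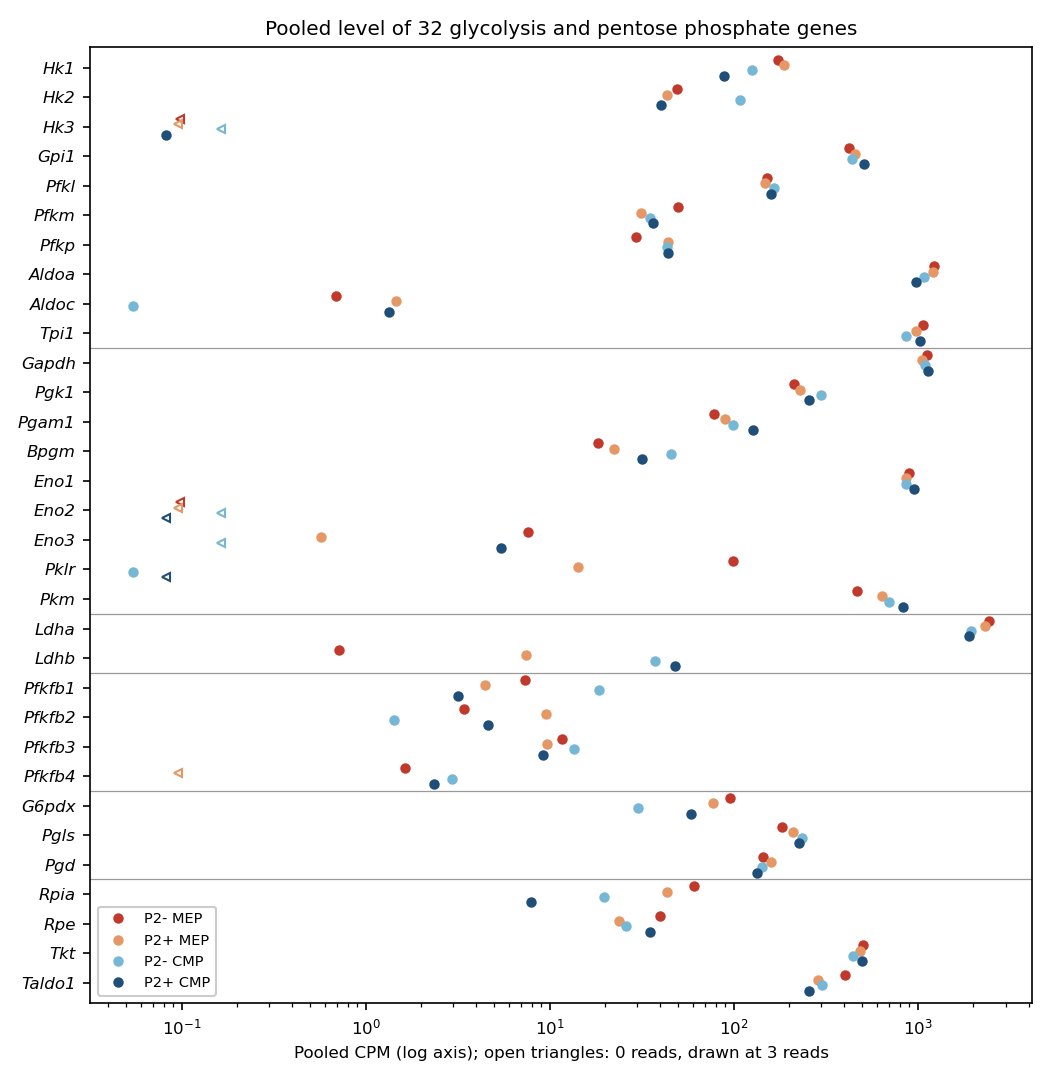
Pooled level of the 32 genes, in CPM on a log axis, with 1 point for each population and grey lines between the pathway arms; open triangles stand for 0 reads and are drawn at the CPM of 3 reads. Most genes have their 4 points close together, while Pklr runs from 98.8 CPM in P2- MEPs to 0 reads in P2+ CMPs and Ldhb from 0.72 to 48.03 CPM.

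Per kilobase of exon, the most abundant member was Ldha, the main lactate dehydrogenase of glycolytic tissues, at 739, 697, 587 and 574 CPM per kb. Aldoa, the aldolase that splits fructose bisphosphate, followed at 420, 415, 370.98 and 337.3 CPM per kb. Tpi1, which interconverts the triose phosphates, stood at 390, 355.4, 312.2 and 371.4 CPM per kb, so that Aldoa and Tpi1 changed places in P2+ CMPs. Gapdh, which makes the NADH of the pathway, varied least among these, between 256.04 and 276.7 CPM per kb. The phosphofructokinases and hexokinases were far lower. Pfkl, the most abundant phosphofructokinase, was at 22.2 to 24.9 CPM per kb, and Hk1 at 10.4 to 21.96 CPM per kb.

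In the comparison of P2+ with P2- MEPs, 2 of the 25 genes were at least 2-fold apart, where 10.2% of all 8741 genes that passed the same filter were. Ldhb was higher, where 7.52% of all genes were at least 2-fold higher, and Pklr was lower, where 2.68% of all genes were at least 2-fold lower. Between P2+ and P2- CMPs, Hk2 and Rpia were lower and no gene of the set was higher, where 4.48% of all genes were lower, 3.43% were higher and 7.92% were apart in either direction. P2- CMPs against P2- MEPs gave 6 genes apart, where the background was 18.9%. Hk2, Bpgm and Ldhb were higher (12.3% of all genes) and Pklr, G6pdx and Rpia lower (6.68%). P2+ CMPs against P2+ MEPs gave 4 genes apart, where the background was 15.4%. Ldhb was higher (8.05% of all genes) and Hk1, Pklr and Rpia were lower (7.38%). Each population stands in 2 of these comparisons. The shares of the 25 genes, 8%, 8%, 24% and 16%, lay near those of all genes. Over all 4 comparisons 18 of the 25 genes stayed within 2-fold and 28% did not, beside 30.7% of all genes.

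The median log2 ratio over the 25 genes (24 between the CMP populations, where Pklr has no ratio) was -0.06, -0.01, -0.05 and 0.06 in the order of the comparisons above, beside 0.01, -0.03, -0.00 and -0.06 over all genes tested. Without its sign, the median log2 ratio was 0.20, 0.23, 0.41 and 0.22 for the members and 0.31, 0.31, 0.44 and 0.40 for all genes tested.

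**Figure D2:**
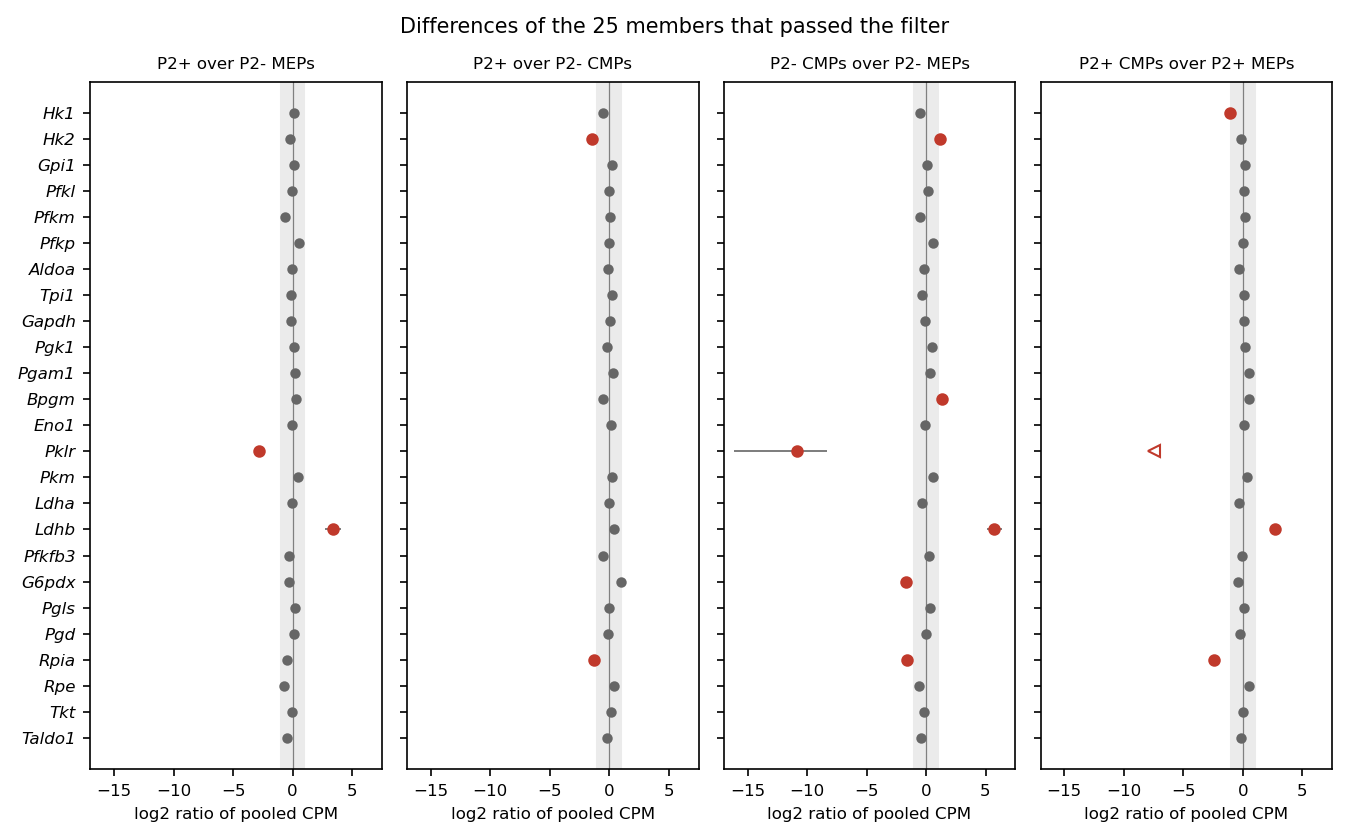
Log2 ratio of pooled CPM for the 25 genes that passed the filter, 1 panel for each comparison, with exact 95% counting intervals as lines and the range within 2-fold in grey; red points lie at least 2-fold apart, and the open triangle is a bound set by the floor of 3 reads. Most points lie in the grey band, and Pklr and Ldhb lie far outside it on opposite sides in all panels but that of the CMPs.

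Glucose is trapped in the cell by hexokinase, and Hk1 is the constitutive and Hk2 the more regulated form. Hk1 was at 174, 187, 126 and 88.6 CPM. The lowest, median and highest cells were at 44.8, 175 and 292.1 CPM in P2- MEPs and at 12.5, 195 and 481 CPM in P2+ MEPs. They were at 1.58, 116 and 312.7 CPM in P2- CMPs and at 0, 86.7 and 207.8 CPM in P2+ CMPs. The cells of all populations overlapped, and the pooled level of P2+ CMPs was 2.12-fold below that of P2+ MEPs (log2 ratio -1.08, counting interval -1.14 to -1.02, and -0.65 when scaled to ERCC reads).

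Hk2 was at 48.98, 43.4, 108 and 40.2 CPM, so that P2- CMPs stood above the other populations, which lay close together. The median cell was at 34.6, 22.4, 69.8 and 26.8 CPM and the highest at 169, 210, 311.2 and 221.9 CPM, with cells without a read in each population. P2- CMPs were 2.20-fold above P2- MEPs (log2 ratio 1.14, interval 1.04 to 1.23) and P2+ CMPs 2.68-fold below P2- CMPs (log2 ratio -1.42, interval -1.52 to -1.32). At equal depth, 75%, 63.8%, 77.8% and 73.8% of cells had an Hk2 read, with exact intervals that all overlapped. Without thinning 47 of 56, 34 of 47, 26 of 27 and 35 of 42 cells had one, at unequal depth. The log2 ratio between P2- CMPs and P2- MEPs was 0.88 when every cell had equal weight, 0.85 with DESeq2 size factors and 0.62 when scaled to ERCC reads. Hk3 had 3 reads in all, in 1 P2+ CMP.

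Per kilobase, Hk1 made up 71.4% (interval 70.2 to 72.5), 75.1% (74.0 to 76.2), 45.02% (43.5 to 46.5) and 60.6% (59.1 to 62.1) of the hexokinase reads. The summed hexokinase level, 28.6, 29.2, 32.8 and 17.1 CPM per kb, was lowest in P2+ CMPs, where Hk1 and Hk2 were both low. Hk1 was therefore the larger share in 3 populations and Hk2 in P2- CMPs. With the longest transcript as the gene length, Hk1 was the larger share in P2- CMPs too, at 60.1%. In single cells the median share of Hk1 against Hk2 was 78.2%, 88.5%, 61.2% and 72.3%, and Hk1 exceeded Hk2 in 49 of 56, 41 of 47, 15 of 27 and 26 of 40 cells with a read of either gene. Both genes were read at equal depth in 42, 30, 20 and 29 cells, so most cells held both.

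The next steps of upper glycolysis differed little. Gpi1, which makes fructose phosphate, was at 424, 455, 438 and 511 CPM. Pfkl, the liver-type phosphofructokinase, was at 152, 148, 166 and 159 CPM. Pfkm, the muscle type, was highest in P2- MEPs, at 49.5 CPM, and at 31.4, 35.3 and 36.6 CPM in the others. Pfkp, the platelet type, was lowest there, at 29.3 CPM, and at 43.8, 43.6 and 44.1 CPM in the others. Between P2+ and P2- MEPs these were log2 ratios of -0.66 for Pfkm and 0.58 for Pfkp, within 2-fold. Per kilobase, Pfkl made up 57.3% to 64.3% of the phosphofructokinase reads, Pfkm 26.97% to 37.2% and Pfkp 5.48% to 9.38%. Pfkm was read in 37 of 56, 25 of 47, 15 of 27 and 23 of 42 cells and Pfkp in 24, 24, 12 and 18, and reads of all 3 genes occurred together in 17, 15, 5 and 11 cells.

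Aldolase use was uniform. Aldoa was at 1222, 1209, 1080 and 982 CPM and was read in every cell, where the lowest cell of any population was at 248.5 CPM and the highest at 2368 CPM. Aldoc, the brain form, had 21, 46, 1 and 49 reads, which came from 1, 1, 1 and 2 cells. Its share of the aldolase reads per kilobase was 0.050%, 0.11%, 0.0045% and 0.12%. Tpi1 was at 1073, 978, 859 and 1023 CPM.

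**Figure D3:**
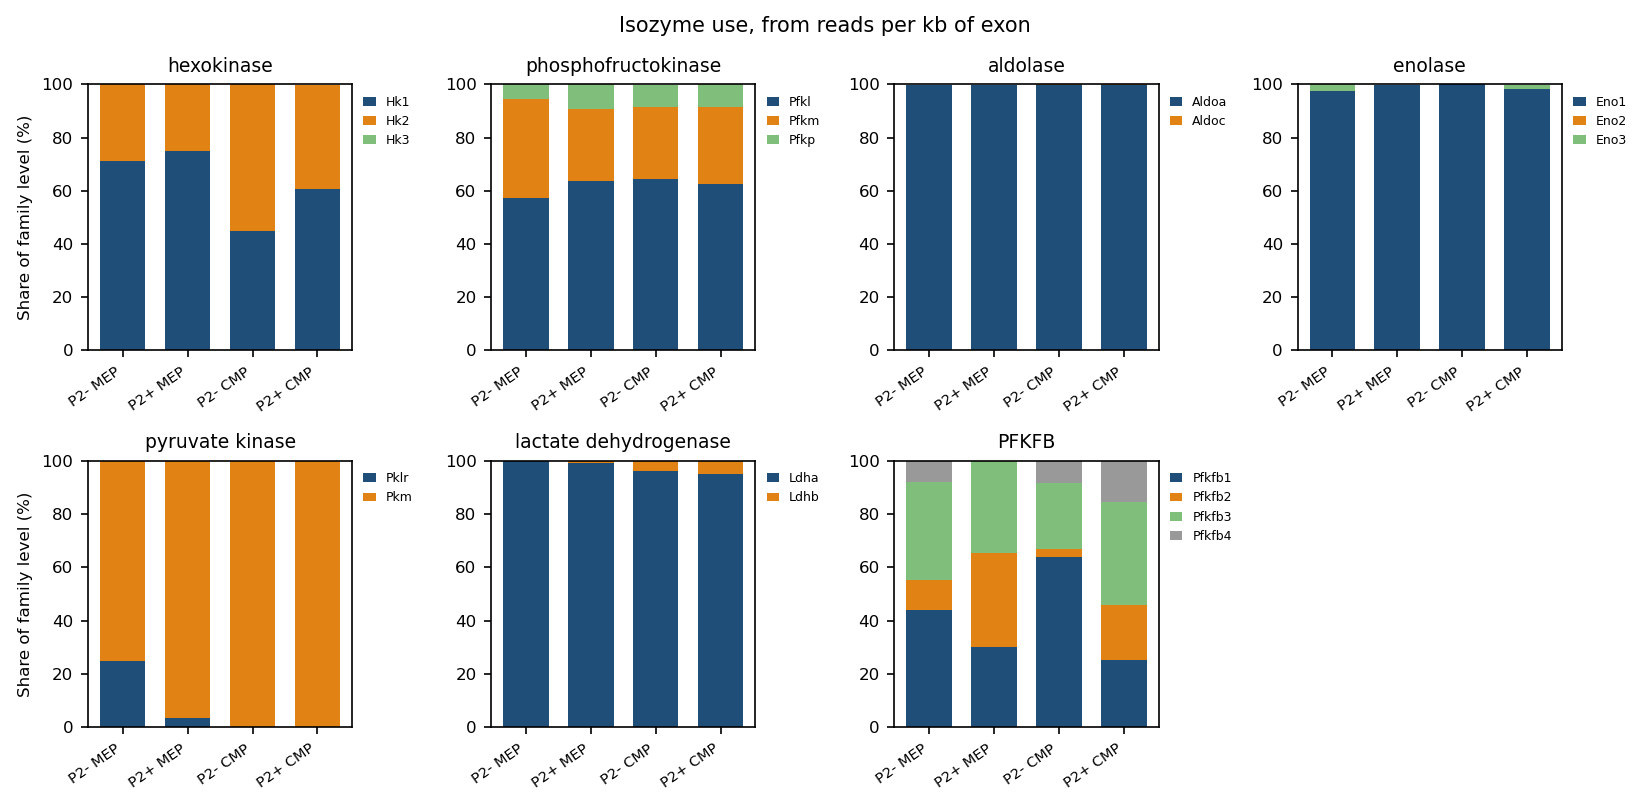
Share of each isozyme in the reads per kilobase of exon of its family, in percent, for 7 families and the 4 populations. Pklr takes 24.7% of the pyruvate kinase level in P2- MEPs and 3.35% in P2+ MEPs, Hk2 takes more than Hk1 in P2- CMPs alone with this gene length, and Aldoa and Ldha take 94.9% or more of their families throughout.

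In lower glycolysis, Gapdh was at 1128, 1058, 1089 and 1144 CPM and Eno1, the common enolase, at 901, 867, 861 and 952 CPM. Pgk1, which makes ATP from bisphosphoglycerate, was at 212.3, 228.3, 297.96 and 255.3 CPM. Pgam1, the mutase of the next step, was at 78.0, 89.7, 99.6 and 127 CPM, and P2+ CMPs stood above P2+ MEPs by a log2 ratio of 0.50. None of these came to 2-fold. Eno3, the muscle enolase, was read in 8, 2, 0 and 3 cells at equal depth, and Eno2, the neuronal form, had no read in any cell.

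Bpgm makes the bisphosphoglycerate that lowers the oxygen affinity of hemoglobin, and is known from red cells. Its level was 18.3, 22.4, 45.5 and 31.7 CPM, higher in P2- CMPs than in P2- MEPs by 2.49-fold (log2 ratio 1.32, interval 1.16 to 1.47, and 0.80 when scaled to ERCC reads). Without the highest cell of each population, Bpgm was at least 2-fold higher in P2+ CMPs than in P2+ MEPs as well. It was read in 35.7%, 34.04%, 48.1% and 47.6% of cells at equal depth, with overlapping intervals. The highest cell was at 125, 224.4, 194 and 148 CPM, and the median cell at 0, 0, 0 and 1.07 CPM. The summed erythroid markers had the opposite order between the P2- populations, at 2062 CPM in MEPs and 861 CPM in CMPs.

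Pklr, the pyruvate kinase of liver and red cells, showed the widest range of all members that passed the filter. In P2- MEPs its level was 98.8 CPM (interval 95.3 to 102) and in P2+ MEPs 14.3 CPM (interval 12.996 to 15.7). P2- CMPs held 1 read, 0.055 CPM, and P2+ CMPs held 0 reads, for which the floor of 3 reads is 0.0825 CPM. The lowest, median and highest P2- MEP were at 0, 89.5 and 272.2 CPM. In P2+ MEPs the median cell was at 0 and the highest at 158 CPM. P2+ MEPs thus overlapped with P2- MEPs, but most of them lay at 0.

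P2+ MEPs were 6.92-fold below P2- MEPs in Pklr (log2 ratio -2.79, interval -2.94 to -2.65, and -3.41 when scaled to ERCC reads). For P2- CMPs against P2- MEPs the log2 ratio was -10.82, with an interval from -16.1 to -8.34 that rests on the single CMP read. Without that cell and the highest P2- MEP, the log2 ratio was a bound of -9.13. P2+ CMPs, set to that floor, were at least 173-fold below P2+ MEPs, and the counting interval of this ratio reached to a log2 of -7.13. No ratio is given between the CMP populations, since both were under the floor of 3 reads. At equal depth 52 of 56 P2- MEPs held a Pklr read (92.9%, interval 82.7 to 98.0). This was so for 9 of 47 P2+ MEPs (19.1%, interval 9.15 to 33.3) and for 0 of 27 and 0 of 42 CMPs, which allows shares of up to 12.8% and 8.41% by the exact interval. Without thinning it was read in 54, 13, 1 and 0 cells. The difference between MEP populations was thus one of the share of cells as well as of the pooled level.

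All 9 P2+ MEPs with a Pklr read at equal depth also had a read of Klf1, which was read in 39 of the 47 P2+ MEPs. Over these 47 cells, thinned to the same depth and sorted from 1 pool, Spearman's rho between the reads of both genes was 0.49. In P2- MEPs, where every cell had a Klf1 read, rho was 0.18 over 56 cells. The summed erythroid markers had the same order as Pklr, from 2062 to 466 CPM, though Hbb-bt, a beta globin, was higher in CMPs, at 9.51, 9.79, 232.2 and 120.6 CPM. Of the 10 markers none was at 0 in MEPs or P2- CMPs and Ermap was at 0 in P2+ CMPs. The part of erythroid cell content in the Pklr differences was not tested.

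Pkm, the pyruvate kinase of most other tissues, was read in every cell and had the opposite order, at 466, 638, 699 and 830 CPM. Its lowest, median and highest cells were at 50.7, 422 and 1068 CPM in P2- MEPs and at 105, 684 and 974.5 CPM in P2+ MEPs. In P2- CMPs they were at 223.7, 689 and 1157 CPM, and in P2+ CMPs at 442, 752 and 1443 CPM. The populations overlapped, and the largest of the 4 log2 ratios was 0.58. Between MEP populations the ratio of Pkm was 0.45, and -0.17 when scaled to ERCC reads. Per kilobase, Pklr made up 24.7% (interval 23.9 to 25.4), 3.35% (3.05 to 3.66), 0.012% and 0% of the pyruvate kinase reads. The summed level of both genes was 124, 132, 139.7 and 166 CPM per kb, so that the lower Pklr of P2+ MEPs stood beside a summed level close to that of P2- MEPs.

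Among single P2- MEPs the share of Pklr ran from 0% to 74.5% with a median of 23.1%, and Pklr exceeded Pkm in 7 of 56 cells. No cell of the other populations had more Pklr than Pkm per kilobase, and the highest share was 31.01% in P2+ MEPs and 0.45% in P2- CMPs. In later annotation of the same build, 21.97% of the Pklr exon bases overlap Hcn3 and 15.3% of the Pkm exon bases overlap Gm49759. Whether the earlier release used for counting held the same overlaps was not tested. With the longest transcript as the gene length the Pklr share was 15.1% in P2- MEPs and 1.84% in P2+ MEPs.

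**Figure D4:**
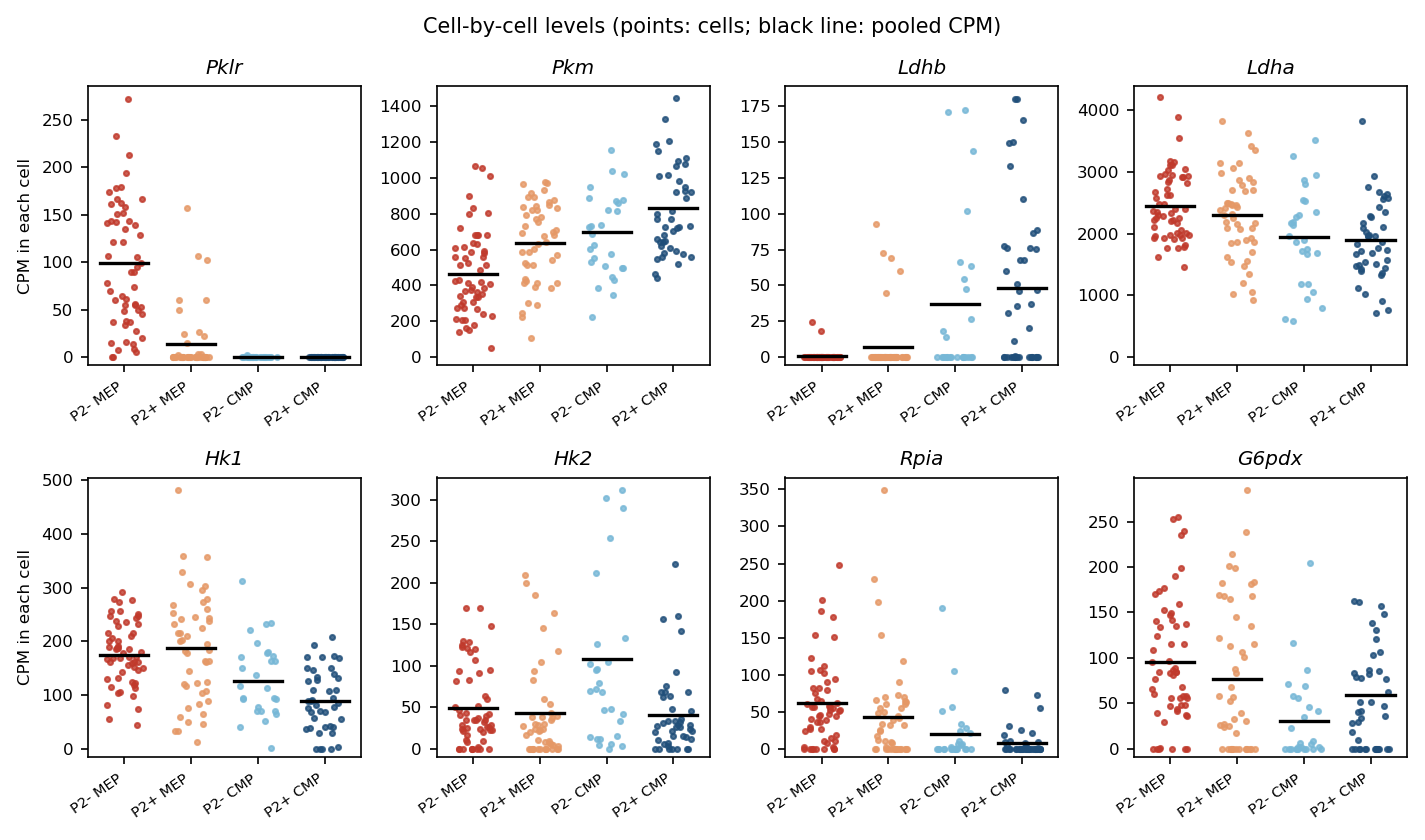
Level of 8 genes in each cell, in CPM, with 1 point for each of the 172 cells and a black line at the pooled CPM of each population. Pklr is spread from 0 to 272.2 CPM over P2- MEPs and lies at or near 0 in CMPs, Ldhb lies at 0 in most MEPs, and Pkm, Ldha and Hk1 overlap across all populations.

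The lactate dehydrogenases also differed in use. Ldha was at 2446, 2308, 1943 and 1901 CPM, and no comparison came to 2-fold. Its lowest cells were at 1467, 932, 592 and 709 CPM and its highest at 4213, 3827, 3517 and 3819 CPM. Ldhb, the heart-type subunit, was at 0.72 (interval 0.45 to 1.09), 7.41 (6.49 to 8.42), 37.3 (34.6 to 40.2) and 48.03 CPM (45.8 to 50.3). The highest cell was at 24.9, 92.5, 172 and 180 CPM, and the median cell was at 0 except in P2+ CMPs, where it was at 33.4 CPM.

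Ldhb was 10.3-fold higher in P2+ than in P2- MEPs (log2 ratio 3.37, interval 2.73 to 4.07). P2- CMPs were 51.9-fold above P2- MEPs (log2 ratio 5.70, interval 5.09 to 6.38) and P2+ CMPs 6.48-fold above P2+ MEPs (log2 ratio 2.70, interval 2.50 to 2.90). Between the CMP populations the log2 ratio was 0.36. The MEP values came from few cells, 2 of 56 and 5 of 47 at equal depth, beside 0 to 6 and 0 to 3 cells for the single hepatocyte markers. In CMPs it was read in 11 of 27 (40.7%, interval 22.4 to 61.2) and 23 of 42 cells (54.8%, interval 38.7 to 70.2). Without the highest cell of each population, the log2 ratio was 4.14 between MEP populations and 6.59 for P2- CMPs over P2- MEPs. Scaled to ERCC reads, these ratios were 2.75 and 5.18.

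Ldha remained the main form in every population, with 99.9%, 99.3%, 96.1% and 94.9% of the lactate dehydrogenase reads per kilobase. The highest Ldhb share of a single cell was 2.65%, 5.83%, 18.4% and 27.8%. Ldha was read in every cell, and so in every cell with an Ldhb read. Pklr and Ldhb, which had opposite orders across populations, were read together at equal depth in 2 P2- MEPs and 2 P2+ MEPs, and no CMP had a Pklr read. Both P2- MEPs with Ldhb therefore held Pklr as well. Granulocyte and monocyte markers, at 9.80, 42.3, 291.3 and 525 CPM, had the same order as Ldhb, a sum made up mostly by Mpo at 2.22, 12.7, 216.5 and 431 CPM and Prtn3 at 7.19, 25.2, 67.0 and 90.7 CPM. Of the other 5 markers, Elane and Csf1r were also highest in P2+ CMPs, at 0.63 and 2.12 CPM, and Cebpa, Ms4a3 and Ctsg were highest in P2- CMPs. Elane, Ctsg, Csf1r and Ms4a3 were at 0 in P2- MEPs and Csf1r in P2+ MEPs. The megakaryocyte markers, at 49.2, 489, 490 and 599.8 CPM, and the 4 progenitor markers, at 565, 752, 1052 and 1086 CPM, summed to the same order too. In the progenitor sum Cd34, a marker of the sort, had that order, whereas Kit, Gata2 and Myb did not. The part of these groups in the Ldhb differences was not tested.

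The PFKFB enzymes make and degrade the fructose bisphosphate that activates phosphofructokinase. All 4 genes were low, with a summed level of 24.01, 23.6, 36.4 and 19.3 CPM, and no read of any was found at equal depth in 33 of 56, 27 of 47, 16 of 27 and 28 of 42 cells. Pfkfb3, the only one that passed the filter, was at 11.6, 9.66, 13.5 and 9.16 CPM and within 2-fold throughout. It was read in 11, 11, 5 and 7 cells. Pfkfb1 was highest in P2- CMPs, at 18.5 CPM, with 125 of its reads from 1 cell. Pfkfb2 was highest in P2+ MEPs at 9.502 CPM, and Pfkfb4 had no read in P2+ MEPs and at most 2.95 CPM elsewhere. Shares within this family rest on few cells and are shown only in the plot of isozyme use.

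In the oxidative arm, G6pdx encodes the enzyme that commits glucose phosphate to the pathway and makes its first NADPH. Its level was 94.9, 77.1, 30.3 and 58.7 CPM. The median cell was at 84.0, 57.01, 4.92 and 41.1 CPM and the highest at 254.8, 284.2, 204 and 162 CPM, and cells at 0 were present in every population. P2- CMPs were 3.13-fold below P2- MEPs (log2 ratio -1.65, interval -1.78 to -1.51), whereas P2+ CMPs were within 2-fold of P2+ MEPs (log2 ratio -0.39). P2+ CMPs stood above P2- CMPs by a log2 ratio of 0.95, just within 2-fold, and passed it under TMM factors, with ERCC reads as the denominator or without the highest cell. The gene was read in 87.5%, 68.1%, 51.9% and 61.9% of cells. Exon bases shared with Ikbkg make up 13.6% of the gene.

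Pgls and Pgd, the next enzymes, did not follow G6pdx. Pgls, the lactonase, was at 183, 210, 236.4 and 226.4 CPM and was read in every cell, and 20.6% of its exon bases overlap Fam129c. Pgd, which makes the further NADPH, was at 143, 160, 142 and 134 CPM. The summed level of the oxidative arm was 422, 448, 409 and 419 CPM.

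The non-oxidative arm begins with Rpia, which makes ribose phosphate from ribulose phosphate. Its level was 61.1 (interval 58.4 to 64.0), 43.3 (41.1 to 45.7), 19.9 (17.9 to 22.001) and 7.92 CPM (7.03 to 8.89). The median cell was at 51.8, 31.5, 0 and 0 CPM and the highest at 247.7, 348.7, 189 and 78.8 CPM. The intervals did not overlap, and cells at 0 were found in all populations.

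Rpia in P2- CMPs was 3.08-fold below P2- MEPs (log2 ratio -1.62, interval -1.79 to -1.46), and P2+ CMPs were 5.47-fold below P2+ MEPs (log2 ratio -2.45, interval -2.64 to -2.27) and 2.51-fold below P2- CMPs (log2 ratio -1.33, interval -1.55 to -1.10, and -0.99 when scaled to ERCC reads). Between MEP populations the log2 ratio was -0.50. At equal depth 80.4% (interval 67.6 to 89.8), 61.7% (46.4 to 75.5), 33.3% (16.5 to 53.96) and 19.05% (8.60 to 34.1) of cells had a read. Neighbours in this order had overlapping shares. In P2- CMPs 115 of the reads came from 1 cell. The summed erythroid markers had the same order as Rpia, and their part in it was not tested. Pklr and Rpia were read together in 42 of 56 P2- MEPs and in 6 of 47 P2+ MEPs, of which 52 and 9 held Pklr.

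Rpe, the epimerase that uses the same substrate as Rpia, had another pattern, at 39.9, 23.9, 26.02 and 35.05 CPM. P2+ MEPs were below P2- MEPs by a log2 ratio of -0.74, and P2+ CMPs above P2+ MEPs by 0.55. Tkt, the transketolase, was at 504, 485, 445 and 499 CPM. Taldo1, the transaldolase, was highest in P2- MEPs, at 401 CPM, and at 286.4, 301.6 and 256.9 CPM in the others, a log2 ratio of -0.49 between MEP populations. Both were read in every cell. The other 3 genes of the arm of Rpia thus stayed within 2-fold in CPM over all cells kept. Rpe came to 2-fold lower in P2- CMPs than in P2- MEPs without the highest cell. Scaled to ERCC reads it did so there (log2 ratio -1.13) and in P2+ against P2- MEPs (-1.35), where Taldo1 was at -1.10.

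**Figure D5:**
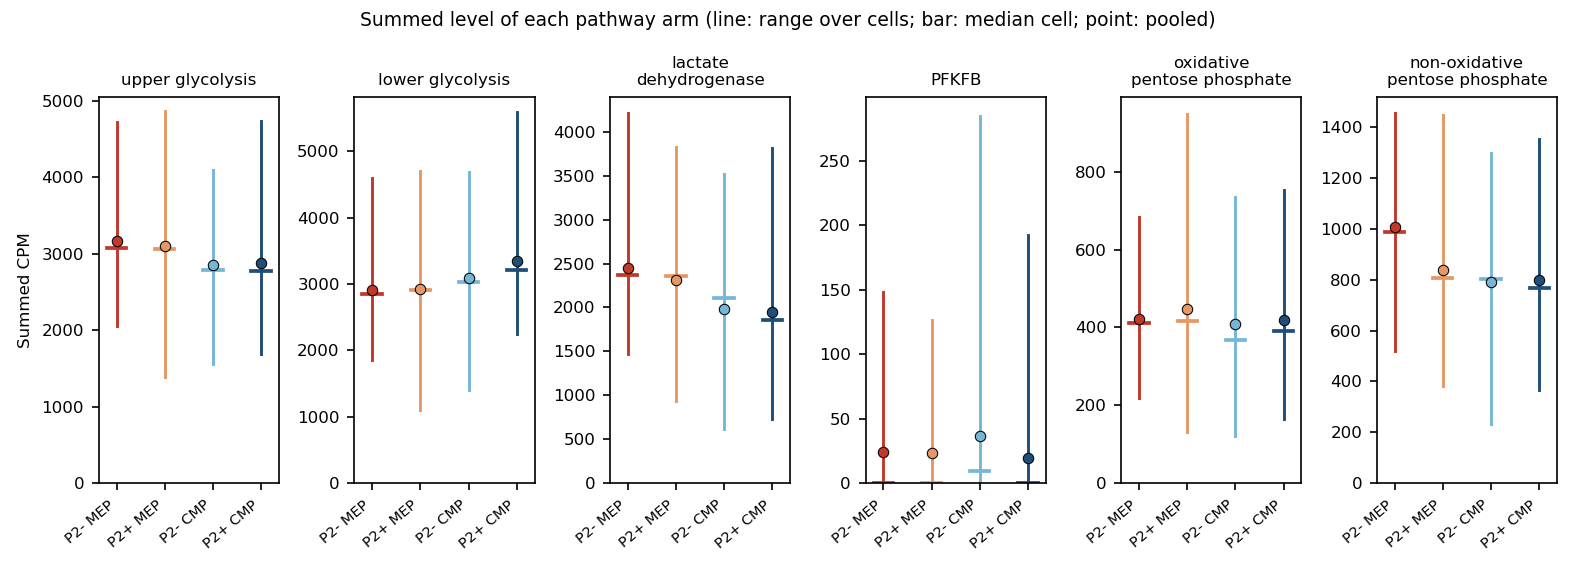
Summed CPM of the genes of each pathway arm, with a line from the lowest to the highest cell, a bar at the median cell and a point at the pooled level of each population. The ranges over cells overlap across all populations in each arm, and the pooled level of the non-oxidative arm is highest in P2- MEPs at 1006 CPM.

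Summed over arms in CPM, the differences were small, and these sums were not scaled to ERCC reads. Upper glycolysis was at 3174, 3099, 2856 and 2886 CPM, and lower glycolysis at 2911, 2918, 3092 and 3345 CPM. Lactate dehydrogenase was at 2446, 2316, 1981 and 1949 CPM, a sum made up almost wholly by Ldha. The non-oxidative arm was at 1006, 839, 793 and 798 CPM. The largest log2 ratio of any arm other than PFKFB was -0.34, for the non-oxidative arm in P2- CMPs against P2- MEPs. Within a population, the summed level of all members ran from 7387 to 14389 CPM over P2- MEPs and from 4584 to 14920 CPM over P2+ MEPs, wider than the differences between populations.

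By position, 7 of the 32 genes lie on chromosome 6 (Hk2, Tpi1, Gapdh, Bpgm, Eno2, Ldhb and Rpia), 4 on chromosome 7 and 3 on chromosome X. Processed copies of member genes carried few reads with 1 exception. Eno1b, a near-identical copy of Eno1, held 8934 reads, 8.48% of the count of Eno1, at 79.9, 72.7, 69.9 and 80.1 CPM, so the reads of Eno1 may be split between both. The other copies listed held at most 1.78% of the reads of their parent gene.

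Of 38 further genes around these pathways, 21 passed the filter. In P2+ against P2- MEPs, Hif1a was higher and Minpp1 lower, 9.52% of the 21 beside 10.2% of all genes. Hif1a, a transcription factor known to induce glycolytic genes in low oxygen, was at 36.04, 77.8, 122 and 66.1 CPM, log2 ratios of 1.11 between MEP populations and 1.76 between P2- CMPs and P2- MEPs. Minpp1, a phosphatase of inositol phosphates that can also act on bisphosphoglycerate, was at 207, 103, 80.8 and 76.6 CPM. In P2+ against P2- CMPs 1 of them, H6pd, which carries out the first oxidative steps in the endoplasmic reticulum, was apart and lower, at 14.7 against 38.8 CPM, which is 4.76% of the 21 beside 7.92% of all genes.

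The transporters among these genes differed in direction. Slc2a1, a glucose transporter, was at 55.3, 105, 87.8 and 116 CPM, and its largest log2 ratio was 0.93, between MEP populations. The lactate transporters were lower in CMPs. Slc16a3 was at 69.2, 69.1, 20.1 and 20.4 CPM, log2 ratios of -1.79 in P2- and -1.76 in P2+ CMPs against the MEPs of the same reporter state, and Slc16a1 was at 155, 149, 96.1 and 58.7 CPM. In P2- CMPs against P2- MEPs, 2 of the 21 were higher (Pgm2 and Hif1a) and 5 lower (Slc16a3, Minpp1, Rbks, Pgm1 and Dlat). In P2+ CMPs against P2+ MEPs none was higher and 5 were lower (Slc16a1, Slc16a3, H6pd, Rbks and Pgm1). These are 33.3% and 23.8% of the 21, beside the 18.9% and 15.4% of all genes. The symbols Pgm1 and Pgm2, of a pair of phosphoglucomutases, are those of the count table and are exchanged in GENCODE M21. The gene called Pgm1 here (ENSMUSG00000029171, Pgm2 in M21) was at 130, 115, 39.5 and 33.3 CPM, and Rbks, the ribokinase that phosphorylates free ribose, at 19.9, 11.5, 5.78 and 3.82 CPM.

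The 5 markers of dividing cells summed to 1623, 1298, 1598 and 1350 CPM and differed among themselves. Mki67 was at 557, 508, 403 and 303.6 CPM, the order of Pklr and Rpia, whereas Top2a was at 417, 356.7, 632 and 468 CPM. Ccnb1, Cdk1 and Aurka did not have that order either. The part of cell division in the differences of the members was not tested. Fbp1, a gene of gluconeogenesis, was read at equal depth in 1 of 27 P2- CMPs and 5 of 42 P2+ CMPs.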

How the data were processed

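Single progenitors were sorted into wells, lysed with ERCC spike-in RNA and turned into full-length cDNA libraries without molecular identifiers (a modified Smart-Seq2 protocol), then sequenced as paired 75 bp reads. The authors trimmed reads (Trimmomatic 0.36), aligned them to GRCm38 with ERCC sequences (STAR 2.4.2a) and counted reads on the exons of each GENCODE M12 gene, unstranded (HTSeq 0.6.1p1), and these raw counts are the values deposited. They also deposited, for each cell, the percent of reads that did not map and the reads that could not be assigned. Reads that matched more than 1 gene (25.6% of the uniquely mapped reads) or lay outside all genes (7.40%) stayed out of all totals. Cells with at least 250000 reads, at most 25% unmapped and at most 15% ERCC reads were kept (172 of 175), as in the study. No doublet caller was run. Cells labelled CMP_low and CMP_high were read as P2- and P2+ CMPs, 1 CMP_low cell with a subtype label of MEPs was kept there, and the plate of each cell is not given in the sources used here.

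Counts were pooled per population and divided by all reads on mouse genes. A gene was compared if reads were found in at least 25% of cells with a mean of at least 1, and called apart at 2-fold. Since each population was 1 pool of cells, no test was run. Exact 95% Poisson, conditional binomial and Clopper-Pearson intervals cover counting error only, and copies made by PCR are not independent molecules. A population without a read was set to 3 reads for a bound. Shares of cells were taken after thinning to 100000 reads. Levels between genes were divided by the union of exons in GENCODE M21, a later release of the same build. Values were computed with Python 3.11.15, numpy 2.4.6, pandas 2.3.3 and scipy 1.17.1, with TMM factors from edgeR 4.0.16 and size factors from DESeq2 1.42.0 as alternatives. The ratio code was checked on simulated data. All 32 members are named. The members, the list of 38 further pathway genes and the marker lists were chosen with earlier results of these data known. Promoter sequences and motif searches used RefSeq starts, which matched all 32 members. Some genes of these lists are not reported here.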

Additional observations from a re-analysis of the deposited data

How the results depend on the processing

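The 14 differences of at least 2-fold among members gave 106 values under other scalings and sets of cells. All kept their direction, and 100 stayed at or above 2-fold. Those that did not were Hk2 in P2- CMPs over P2- MEPs with equal weight for every cell (0.88 on the log2 scale), with DESeq2 size factors (0.85) and with ERCC reads as denominator (0.62), and, with ERCC reads, Hk1 in P2+ CMPs over P2+ MEPs (-0.65), Bpgm in P2- CMPs over P2- MEPs (0.80) and Rpia in P2+ over P2- CMPs (-0.99). The ERCC scaling and the filter at 30% of cells were chosen after seeing the data.

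Numbers of members called moved as follows. In P2+ over P2- MEPs, higher genes were 0 over all 175 deposited cells or with reads required in 30% of cells, where Ldhb was not compared, 2 with the mean count of at least 1 alone and 3 without a filter. Lower genes were 3 with the mean count alone, without a filter or at 1.5-fold, and 5 with ERCC reads (Pfkm, Pklr, Rpia, Rpe and Taldo1). In P2+ over P2- CMPs, higher genes were 1 (G6pdx) with TMM factors, without the highest cell, at 1.5-fold or with ERCC reads, 2 with the mean count alone and 3 without a filter, and lower genes were 1 with ERCC reads and 3 with either looser filter. In P2- CMPs over P2- MEPs, higher genes were 1 with ERCC reads, 2 with equal weight or size factors (without Hk2) and over all deposited cells or at 30% of cells (without Ldhb), and 4 with either looser filter, and lower genes were 4 without the highest cell or at 1.5-fold (with Rpe), 5 with the mean count alone or ERCC reads and 6 without a filter. In P2+ CMPs over P2+ MEPs, higher genes were 0 over all deposited cells or at 30% of cells, 2 (Bpgm and Ldhb) without the highest cell, and 3 with the mean count alone or without a filter, and lower genes were 4 with either of these and 2 with ERCC reads. The genes added by looser filters were Aldoc, Eno3, Pfkfb1, Pfkfb2 and Pfkfb4, each read in under 25% of cells.

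The Pklr share was 23.8% in P2- MEPs with equal weight for every cell. Without the highest cell it was 2.96% in P2+ MEPs and 0% in P2- CMPs. With the longest transcript as gene length it was 15.1% and 1.84% in P2- and P2+ MEPs, and the Hk1 share was 82.1%, 84.8%, 60.1% and 73.9%. The Hk1 share of P2- CMPs was 49.4% with equal weight and 47.1% without the highest cell. The Aldoc share was 0%, 0%, 0% and 0.045% without the highest cell and 0.067% and 0.076% in P2+ MEPs and P2+ CMPs with the longest transcript. At 50000 reads Hk2 was read in 22 P2+ MEPs, and without thinning in 26 P2- CMPs.

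Sums over arms moved beyond their counting intervals, which are narrow. Upper glycolysis was at 3079, 2820.5 and 2862 CPM with equal weight (all but P2- MEPs) and at 3197, 3186, 2756 and 2820.7 CPM with DESeq2 size factors. Lower glycolysis was at 2940, 3041 and 3283 CPM with equal weight (all but P2+ MEPs) and at 2941, 3028, 2968 and 3239 CPM with size factors. Lactate dehydrogenase was at 2474 CPM in P2- MEPs with equal weight and at 2477, 2384, 1955 and 1916 CPM with size factors. PFKFB was at 39.9 and 17.2 CPM in P2- and P2+ CMPs with equal weight and at 16.99 CPM in P2+ CMPs with size factors. The oxidative arm was at 411 CPM in P2+ CMPs with equal weight and, in all but P2- MEPs, at 469, 392.3 and 405 CPM with size factors. The non-oxidative arm was at 771 and 788 CPM in P2- and P2+ CMPs with equal weight and, in all but P2- MEPs, at 862, 747 and 773 CPM with size factors.

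Where a value moved, the cause was not tested unless the change of filter or cells named with it removed or added a gene. No paired analysis was possible because each population was 1 pool of cells and the results come from no test. Differences between plates, which the sources used here do not give, were not tested. A gene without a read in a population was set to the level of 3 reads, 0.0825 to 0.164 CPM.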
